A study of Mus musculus with 8 samples.

Results

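H3K4me3 in lung tumor cells is described here over 10 stretches of the mouse genome, each 5 Mb long. The genome was divided into 529 bins of 5 Mb that held at least 1 listed H3K4me3 peak, and 438 of them held at least 20 peaks. The 10 windows are those with the lowest median log2 fold change of their peaks between KLG4m/m and KL tumor cells, so the direction of the change in them was fixed by the choice. They hold 491 of the 35486 listed peaks, assigned to 281 of 20871 genes. Each window is named by its chromosome and by a gene in it: chromosome 3 from 145 to 150 Mb (Syde2), chromosome 4 from 80 to 85 Mb (Nfib), chromosome 6 from 15 to 20 Mb (Foxp2), chromosome 2 from 145 to 150 Mb (Foxa2), chromosome 5 from 5 to 10 Mb (Dbf4), chromosome 17 from 65 to 70 Mb (Twsg1), chromosome 8 from 40 to 45 Mb (Zdhhc2), chromosome 17 from 10 to 15 Mb (Igf2r), chromosome 14 from 45 to 50 Mb (Bmp4) and chromosome 10 from 25 to 30 Mb (Epb41l2).

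Trimethylation of lysine 4 on histone H3 (H3K4me3) marks the nucleosomes around the start sites of genes that are active or ready to be transcribed, and is deposited by the SET1 and MLL methyltransferase complexes that are drawn to CpG-rich promoters. A strong peak therefore usually sits on a start site, whereas weaker H3K4me3 away from annotated start sites is often found at active enhancers or at start sites that the annotation lacks. The study calls its assay CUT&Tag. Its protocol describes an antibody against the mark that guides tethered MNase to cut the chromatin nearby, and the freed fragments are sequenced. Such MNase cleavage is that of CUT&RUN, and the study's name for the assay is kept here.

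The study asked how the loss of GPX4, which reduces phospholipid hydroperoxides and protects cells from ferroptosis, alters established lung tumors. KL tumor cells (Lkb1fl/fl) gave 2 libraries, replicates 1 and 2, and KLG4m/m tumor cells (Lkb1fl/fl Gpx4m/m) gave 2 libraries, replicates 3 and 4. Both groups lost Lkb1 through intranasal Ad-Cre at 8 to 10 weeks of age, on a C57BL/6 background, and both received tamoxifen from week 5 for 2 weeks. CD45-CD31-EpCAM+ cells were sorted from the lung tumors 10 weeks after Ad-Cre. In the Gpx4m/m allele, Cre switches on DreERT2 under a CAG promoter, and tamoxifen then lets Dre delete rox-flanked exons of Gpx4, so the deletion is limited to cells that Cre had reached. The Ad-Cre used does not restrict recombination to 1 cell type. The legend for these data counts 2 mice per group. The extraction protocol counts 3 mice in total and does not say which libraries they gave. It is thus not settled that each library is a different mouse, and part of the spread between replicates may be technical.

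Depth was even, with 3244495 to 3463731 reads in peaks per library. The replicate libraries differed by more than sampling noise (chi-square per degree of freedom of 1.13 in KL and 1.23 in KLG4m/m). Each was counted as 1 sample, though this value cannot tell whether the replicates come from different mice. The Gpx4 promoter lies outside the deleted exons and cannot check the deletion. Peaks of 15 of 16 alveolar type 2 and epithelial marker genes summed to 711 and 740 CPM in the KL libraries against 567 and 588 CPM in the KLG4m/m libraries, and 8 of these 33 peaks were called lower and 0 higher (5.52% and 3.1% of all listed peaks). At the Epcam promoter, the gene behind the sort, the level was 40.9 and 42.9 CPM in KL and 22.3 and 23.5 CPM in KLG4m/m. Macrophage marker peaks (10 of 11 genes) summed to 371 and 386 CPM against 438 and 446 CPM, and lymphocyte marker peaks (11 of 12 genes) to 261 and 243 CPM against 318 and 311 CPM. Endothelial marker peaks (9 of 9 genes) ranged from 302 to 343 CPM in KL and from 324 to 337 CPM in KLG4m/m, and fibroblast marker peaks (4 of 9 genes) from 107 to 109 CPM and from 114 to 120 CPM. Calls among them were 2 lower and 2 higher of 28 macrophage peaks, 1 higher of 20 lymphocyte peaks, 1 lower of 25 endothelial peaks and 1 higher of 7 fibroblast peaks. None of these marker peaks lies in the 10 windows, and their part in the values that follow was not tested. In sorted cells measured in bulk, fewer cells that carry a peak and less of the mark per cell cannot be told apart.

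Some promoters of the windows are shown first, as the 250 bases upstream of the start site, 5′ to 3′ on the gene's strand. They were chosen after the values had been seen, to set a promoter with a called decrease (Syde2, Rundc3b, Dbf4, Igf2r, Bmp4) beside a promoter of the same window that was not called (Bcl10, Crot, Airn, Cgrrf1). Capitals mark each CpG, the 2-letter sequence CG, which reads the same on both strands. The sequences and their positions are those of RefSeq for GRCm38.p6. The methods name an Ensembl release of GRCm38 for mapping, but of 266 window genes found by symbol only 1 has the same start or end in the deposited table as in GRCm38.p6. The build of the deposited peak positions is thus not settled, and each sequence was matched to its peak by gene symbol alone.
Syde2 (chr3:145987620-145987869, plus strand): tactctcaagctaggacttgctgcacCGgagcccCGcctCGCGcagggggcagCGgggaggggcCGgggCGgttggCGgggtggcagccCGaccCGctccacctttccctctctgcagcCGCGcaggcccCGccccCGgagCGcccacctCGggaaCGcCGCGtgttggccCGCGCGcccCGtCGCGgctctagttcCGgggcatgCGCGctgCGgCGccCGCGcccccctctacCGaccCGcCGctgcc
Bcl10 (chr3:145924012-145924261, plus strand): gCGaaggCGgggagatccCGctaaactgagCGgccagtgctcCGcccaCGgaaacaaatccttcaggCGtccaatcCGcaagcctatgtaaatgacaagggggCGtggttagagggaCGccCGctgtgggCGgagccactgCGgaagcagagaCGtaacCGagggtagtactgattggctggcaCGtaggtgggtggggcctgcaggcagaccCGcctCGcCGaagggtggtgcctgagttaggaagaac
Rundc3b (chr5:8622953-8623202, minus strand): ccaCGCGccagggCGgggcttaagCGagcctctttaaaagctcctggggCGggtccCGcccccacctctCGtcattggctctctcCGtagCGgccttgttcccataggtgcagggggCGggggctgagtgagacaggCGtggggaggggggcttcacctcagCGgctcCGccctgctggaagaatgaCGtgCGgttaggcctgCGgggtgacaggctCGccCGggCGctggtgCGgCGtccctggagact
Dbf4 (chr5:8422717-8422966, minus strand): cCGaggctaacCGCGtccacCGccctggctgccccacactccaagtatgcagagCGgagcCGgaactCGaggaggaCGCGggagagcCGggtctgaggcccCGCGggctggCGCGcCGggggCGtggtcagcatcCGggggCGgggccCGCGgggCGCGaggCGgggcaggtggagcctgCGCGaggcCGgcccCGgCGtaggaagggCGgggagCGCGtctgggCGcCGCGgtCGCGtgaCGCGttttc
Crot (chr5:8997147-8997396, minus strand): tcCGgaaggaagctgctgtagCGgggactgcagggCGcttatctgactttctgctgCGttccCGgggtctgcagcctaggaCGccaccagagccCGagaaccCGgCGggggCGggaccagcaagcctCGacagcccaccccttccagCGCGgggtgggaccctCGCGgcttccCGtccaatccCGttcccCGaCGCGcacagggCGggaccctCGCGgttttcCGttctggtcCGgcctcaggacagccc
Igf2r (chr17:12769707-12769956, minus strand): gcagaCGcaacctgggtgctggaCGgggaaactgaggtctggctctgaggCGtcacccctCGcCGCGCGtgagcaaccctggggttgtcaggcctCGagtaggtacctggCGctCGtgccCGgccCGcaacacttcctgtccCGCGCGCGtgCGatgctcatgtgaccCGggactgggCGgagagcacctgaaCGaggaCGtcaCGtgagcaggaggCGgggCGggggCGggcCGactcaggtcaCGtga
Airn (chr17:12741061-12741310, plus strand): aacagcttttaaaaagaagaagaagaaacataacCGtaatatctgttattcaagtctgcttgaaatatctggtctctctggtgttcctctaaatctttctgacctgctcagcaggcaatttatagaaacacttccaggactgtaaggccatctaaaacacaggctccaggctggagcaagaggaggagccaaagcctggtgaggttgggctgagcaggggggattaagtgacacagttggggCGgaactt
Bmp4 (chr14:46390670-46390919, minus strand): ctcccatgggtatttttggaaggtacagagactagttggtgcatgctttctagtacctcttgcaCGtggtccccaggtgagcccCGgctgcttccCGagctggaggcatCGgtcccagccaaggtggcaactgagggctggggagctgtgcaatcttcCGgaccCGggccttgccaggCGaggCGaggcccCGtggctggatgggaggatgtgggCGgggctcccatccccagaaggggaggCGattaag
Cgrrf1 (chr14:46831884-46832133, plus strand): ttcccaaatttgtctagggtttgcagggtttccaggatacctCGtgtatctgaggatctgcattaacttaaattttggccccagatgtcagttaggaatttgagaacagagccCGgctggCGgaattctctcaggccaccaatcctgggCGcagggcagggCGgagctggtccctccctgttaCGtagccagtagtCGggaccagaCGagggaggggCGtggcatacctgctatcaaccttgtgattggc
Across all 32851 promoters of the table, the 250 upstream bases held a median of 6 CpG (interquartile range 2 to 16), and 92.1% held at least 1. The called promoters shown hold 35 (Syde2), 21 (Rundc3b), 38 (Dbf4), 27 (Igf2r) and 11 (Bmp4), all above that median. Among called promoters read but not shown, Epb41l2 holds 4, below the median. Afdn (51), Gng5 (44), Capza2 (28), Ndufv2 (28), Twsg1 (16) and Naa20 (10) lie above it. Of those not called, Bcl10 holds 19, Crot 25 and Cgrrf1 9, while Airn, the promoter of the antisense RNA of the Igf2r locus, holds 2. CpG counts of the called and the uncalled promoters shown thus overlap. Only 153 of the 193 genes with a promoter peak in the windows (79.3%) have an entry, under the 80% needed, so no comparison of base composition was made over the windows.

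Window medians ran from -0.36 on the log2 scale (chromosome 3, Syde2) through -0.34 (chromosome 4), -0.33 (chromosome 6), -0.31 (chromosome 2), -0.29 (chromosome 5), -0.28 (chromosome 17, Twsg1), -0.28 (chromosome 8), -0.27 (chromosome 17, Igf2r) and -0.27 (chromosome 14) to -0.23 (chromosome 10, Epb41l2). The 3 bins that just missed the choice, on chromosomes 4 (50 to 55 Mb), 16 (25 to 30 Mb) and 10 (30 to 35 Mb), each had a median of -0.21. In the other 428 bins the medians ranged from -0.21 to 0.32, and 215 of them were below 0. The windows thus form the low end of a continuous range rather than a group set apart by a gap. Neighbouring bins on either side of the windows had medians between -0.22 and 0.11. The lowest of these neighbours, above the chromosome 5 window, rested on 7 peaks, and the bin above the chromosome 10 window (-0.21) was among those that just missed the choice.

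The reads summed over a window give its total mark. In the chromosome 3 window the sum was 1251 and 1233 CPM in the KL libraries and 1070 and 1061 CPM in the KLG4m/m libraries, a log2 ratio of -0.22. The chromosome 4 window went from 799 and 813 CPM to 676 and 697 CPM (-0.23), and the chromosome 5 window from 1028 and 1028 CPM to 894 and 863 CPM (-0.23). The spread within each group was smaller than the distance between the groups in all 3. In the chromosome 8 window the sums were 748 and 716 CPM against 646 and 612 CPM (-0.22), in the chromosome 6 window 745 and 779 CPM against 676 and 652 CPM (-0.20), and in the chromosome 10 window 570 and 600 CPM against 519 and 515 CPM (-0.18). The chromosome 14 window, the strongest of the 10, held 1965 and 1953 CPM against 1766 and 1756 CPM (-0.15), and the Twsg1 window of chromosome 17 held 1388 and 1380 CPM against 1278 and 1228 CPM (-0.14). In these 8 windows, and in the Foxa2 window described next, both KLG4m/m libraries were below both KL libraries. The windows were chosen on the contrast of these libraries, so such separation follows largely from the choice and is no check on it. How many other bins separate in this way was not counted.

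The other 2 windows were low by their median but less so, or not at all, by their sum. In the Foxa2 window of chromosome 2 the sum was 1359 and 1366 CPM in KL and 1250 and 1325 CPM in KLG4m/m, a log2 ratio of -0.08 that ranked 46 among the 438 bins. In the Igf2r window of chromosome 17 it was 1241 and 1198 CPM against 1235 and 1230 CPM, a log2 ratio of 0.01 that ranked 269, and the libraries of the 2 groups overlapped. Of the 10 windows, 7 were among the 10 bins with the lowest summed ratio. In the other bins of at least 20 peaks the summed log2 ratio ran from -0.17 to 0.22. Among the neighbouring bins with fewer peaks, that above the chromosome 5 window (7 peaks) was at -0.32 and that below the chromosome 6 window (13 peaks) at -0.19.

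**Figure D1:**
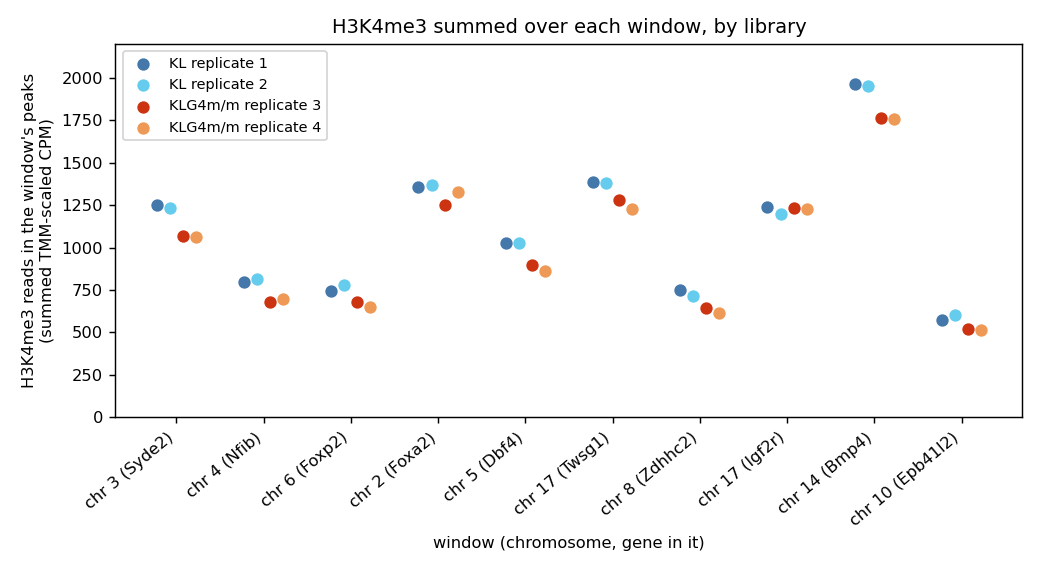
Summed H3K4me3 reads over the peaks of each window, in TMM-scaled CPM on the vertical axis, for the 10 windows on the horizontal axis; each point is 1 library. Both KLG4m/m points sit below both KL points in every window but the Igf2r window of chromosome 17, where the 4 libraries lie between 1198 and 1241 CPM. The windows were chosen on this contrast.

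A change of the same direction was present in both libraries of each group. For each peak, the deviation of each library from the mean of the 4 libraries was taken on the log2 scale. The median deviation over the 491 peaks was 0.12 and 0.10 in the KL libraries and -0.10 and -0.11 in the KLG4m/m libraries, whereas over all other peaks it lay between 0.00 and 0.01 in every library. In each of the 10 windows taken alone, both KL medians were above 0 and both KLG4m/m medians below 0. The windows were chosen on the contrast of these same libraries, so the opposite signs of the groups follow largely from the choice. They are no check on it, and the scaling itself holds most other peaks near 0. The size was not the same in the 2 KLG4m/m libraries: in the chromosome 3 window the medians were -0.22 and -0.09, and in the chromosome 5 window -0.07 and -0.20.

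Of the 491 peaks, 348 (70.9%) had a log2 fold change below 0, against 49.0% of all peaks. edgeR's quasi-likelihood test over all listed peaks called 64 of them lower, where 5.52% of all peaks were called lower, and 11 higher, where 3.1% of all peaks were called higher. Both KLG4m/m libraries were below both KL libraries at 239 of the 491 peaks (26.6% of all peaks) and above them at 73 (27.5% of all peaks). These counts describe windows chosen on the same contrast and are no test. The 64 called peaks belong to 59 genes, and Gm52313 was the 1 gene with a peak called in each direction. The median over the 491 peaks was -0.29, and that of all other peaks 0.01. Fitted values ran from -3.01 to 2.63, both ends at weak peaks. The lowest, assigned to Gm30397 at 309563 bp from its start site, had 15 and 12 reads in KL and 1 and 2 reads in KLG4m/m, a ratio of summed reads of 0.115 (exact 95% interval 0.0223 to 0.373, for counting error only). The highest, in an intron of Gm52313, had 4 and 3 reads in KL and 22 and 21 reads in KLG4m/m.

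Peaks within 1 kb of a start site, called promoter peaks here, made up 216 of the 491 (44.0%, against 48.1% of all peaks). Of these 42 were called lower and 4 higher, with a median log2 fold change of -0.21. Of the other 275 peaks, 22 were called lower and 7 higher, with a median of -0.35. Over all listed peaks, 8.43% of promoter peaks and 2.82% of other peaks were called lower, and 2.89% of promoter peaks higher. Thus the promoter peaks of the windows had the more frequent calls and the peaks away from start sites the lower median. Intron peaks were a larger share than in the table as a whole, at 11.6% against 8.49% for the first intron and 18.5% against 13.7% for later introns. Their medians in the windows were -0.38 and -0.38, against 0.06 and 0.01 for all intron peaks of each kind.

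**Figure D2:**
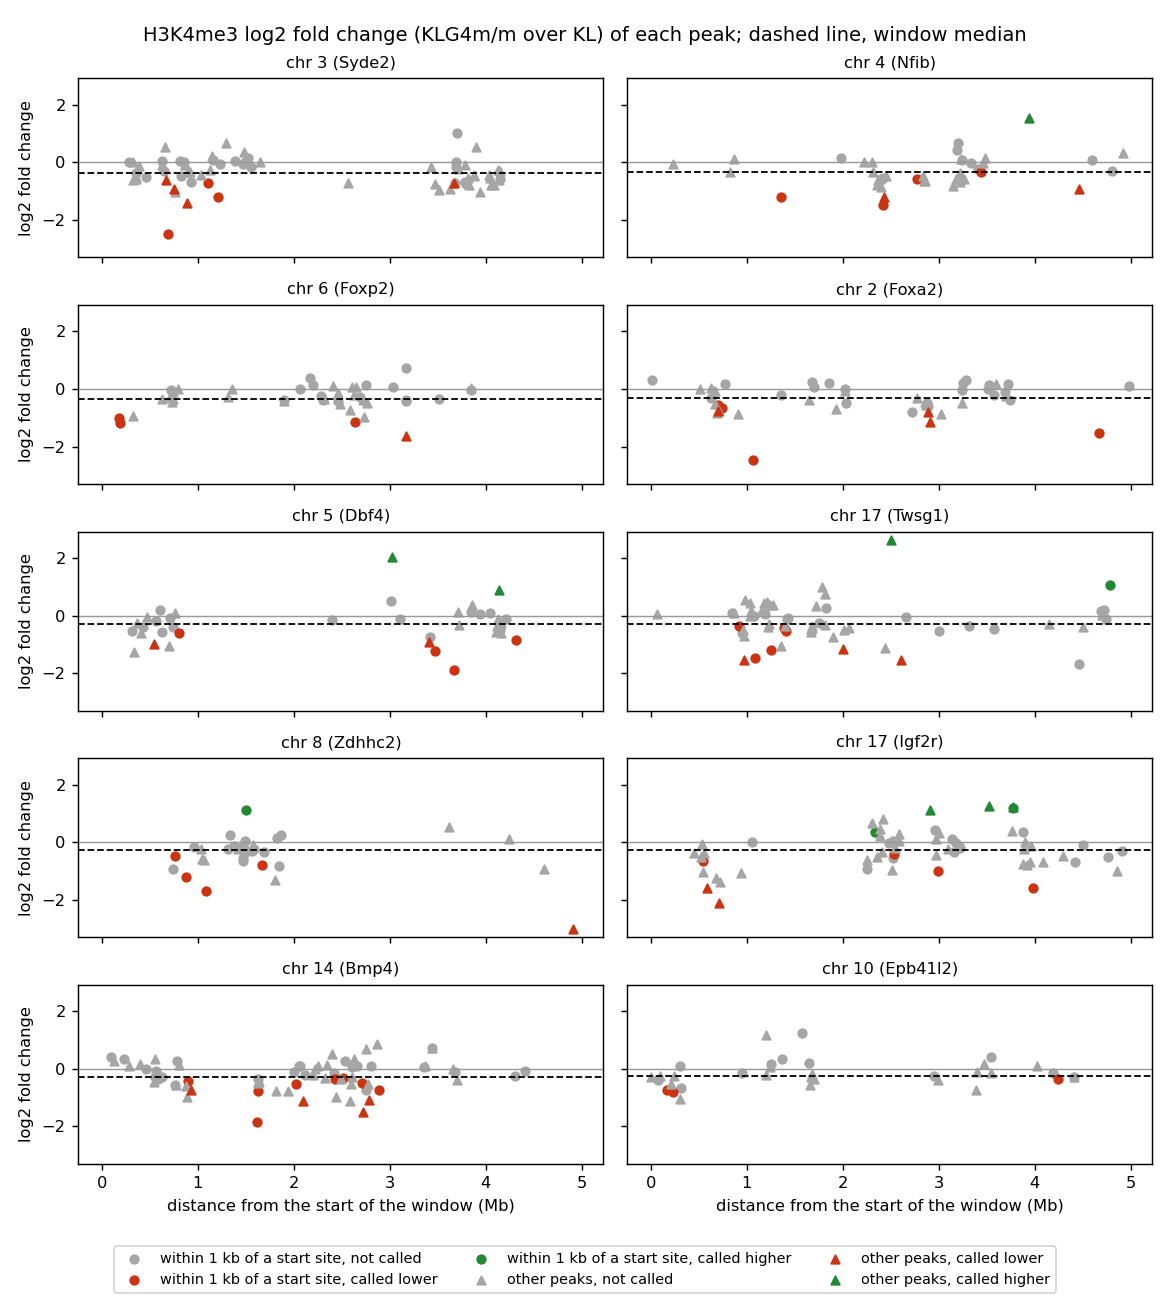
Log2 fold change (KLG4m/m over KL) of each of the 491 peaks on the vertical axis against its distance in Mb from the start of its window, 1 panel per window. Circles are peaks within 1 kb of a start site and triangles other peaks, red marks peaks called lower, green called higher and grey not called, and the dashed line is the window median; called decreases sit among uncalled peaks near 0 in every window.

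The windows were not low throughout. In steps of 1 Mb, the lowest stretch with at least 10 peaks was the first of the Igf2r window (10 to 11 Mb, with Qki and Cahm), with a median of -1.02 over 11 peaks. The third stretch of the same window, which holds Igf2r, Airn and Map3k4, had a median of 0.02 over 22 peaks. In the Nfib window the stretch from 82 to 83 Mb, with Nfib and Zdhhc21, had a median of -0.56 over 15 peaks, and the next stretch, with Psip1 and Snapc3, -0.02 over 15 peaks. In the Syde2 window the stretch with Adgrl2 (148 to 149 Mb) had a median of -0.54 over 19 peaks, and the stretch with Gng5 and Prkacb 0.01 over 15 peaks. Many of the Adgrl2 peaks share 1 gene: 11 peaks are assigned to it, of which 1 intron peak was called lower (but not with DESeq2 or, at -0.52, without KL replicate 2), and its promoter peaks ran from -0.71 to 0.00.

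The strength of a peak went with its fold change. Peaks of the windows had a median level of 9.18 CPM, against 13.4 CPM for all peaks. Those of at most 5 CPM (123 peaks) had a median log2 fold change of -0.39 and those of 5 to 10 CPM (142 peaks) of -0.39. The median was -0.30 from 10 to 20 CPM (75 peaks), -0.28 from 20 to 40 CPM (65 peaks), -0.08 from 40 to 80 CPM (66 peaks) and 0.02 above 80 CPM (20 peaks). All other peaks of the table had medians of -0.10, -0.02, 0.02, -0.01, 0.02 and 0.08 in the same order. The low medians of the windows were therefore carried by peaks of up to 40 CPM, while their strongest peaks had values near 0. The median read number of a window peak in a library was 31.5, so the fold change of most single peaks has a wide counting error. As the windows were chosen on low medians of these same values, the choice itself favours low values at weak, more variable peaks. How much of the trend with level comes from the choice was not tested.

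**Figure D3:**
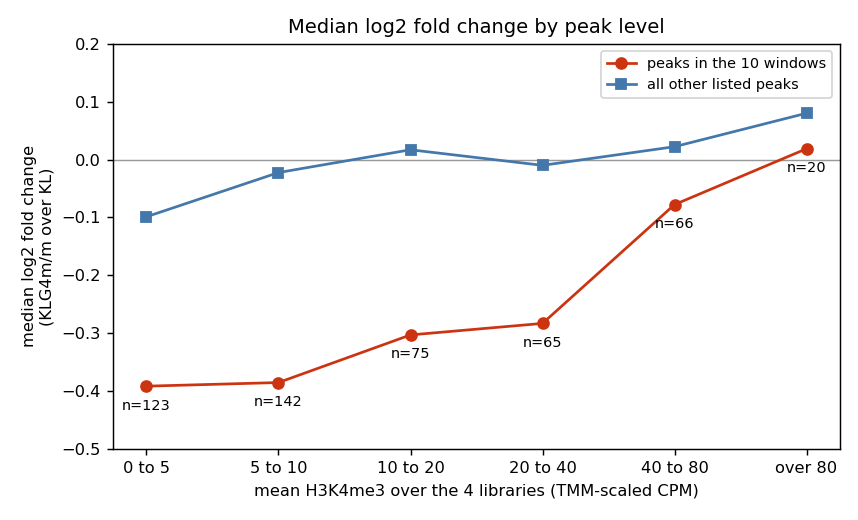
Median log2 fold change (KLG4m/m over KL) on the vertical axis for peaks grouped by mean level in TMM-scaled CPM on the horizontal axis, for the 10 windows (circles, number of peaks beside them) and all other listed peaks (squares). Window medians lie between -0.39 and -0.28 up to 40 CPM and at -0.08 and 0.02 above it.

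The strongest promoter peak of each window was not called in any of the 10. Bcl10, an adaptor of NF-kB signalling, had 399 and 369 reads in KL and 397 and 361 reads in KLG4m/m (log2 fold change 0.04, SE 0.08). At Acat2, a cytosolic thiolase, the reads were 498 and 442 against 428 and 449 (-0.04, SE 0.08). Asah1, the lysosomal acid ceramidase, had 364 and 366 against 404 and 373 reads (0.15, SE 0.08). Crot, a peroxisomal carnitine acyltransferase, had 288 and 301 against 314 and 284 reads (0.08, SE 0.09). The values of the 10 ran from -0.16 at Echdc1, which encodes a metabolite-repair decarboxylase, to 0.15.

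Of the transcription factors listed, Nfib, Foxa2, Foxp2, Insm1 and Bnc2 had at least 1 peak called lower. At Nfib, a nuclear factor I protein needed for lung maturation, the promoter peak at chr4:82424618-82425018 had 60 and 74 reads in KL and 29 and 17 reads in KLG4m/m, a log2 fold change of -1.48 (SE 0.24). A stronger Nfib promoter peak 193 bp from another start site had 87 and 88 against 51 and 64 reads (-0.55, SE 0.18) and was not called. The intron peak of Gm11266, a predicted gene beside Nfib, had 91 and 93 against 41 and 36 reads (-1.20, SE 0.19). At both loci the reads of the groups did not overlap, with KLG4m/m below KL. The same was true of 48.7% of window peaks and 26.6% of all listed peaks, so it is no further support.

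Foxa2, a forkhead pioneer factor of the endoderm and airway epithelium, had a called peak at -1583 bp from its start site, with 94 and 90 reads in KL and 51 and 51 reads in KLG4m/m (-0.79, SE 0.18). Its promoter peak had 84 and 72 against 48 and 52 reads (-0.58, SE 0.19) and was not called. Foxp2, a forkhead repressor of lung epithelium, had 3 peaks, of which both promoter peaks were called: 37 and 48 against 17 and 24 reads (-0.99, SE 0.28), and 28 and 22 against 9 and 12 reads (-1.18, SE 0.36). Insm1, a zinc-finger factor of neuroendocrine cells, fell from 38 and 43 to 7 and 7 reads at its promoter (-2.45, SE 0.34). All these peaks had a KL mean of at most 26.5 CPM. Over the 4 libraries, the median level was 41.2 CPM for all listed promoter peaks and 13.4 CPM for all listed peaks. In each, the KLG4m/m libraries were below the KL libraries, as at 48.7% of window peaks and 26.6% of all listed peaks. Of the 16 transcription factors listed, 9 had a promoter peak in a window. Counting the strongest promoter peak of each gene, which at Nfib is the one not called, 2 were called lower and none higher, with a median of -0.49. In the windows 19.4% of promoter peaks were called lower and 1.85% higher, and of all listed promoter peaks 8.43% and 2.89%. In Bnc2, which encodes basonuclin 2, a later-intron peak of 49 and 43 against 20 and 27 reads was called (-0.91, SE 0.26), while its promoter peak was at 0.08. The calls at the Foxa2 peak at -1583 bp, at the stronger Foxp2 peak and at Bnc2 were lost with DESeq2. DESeq2 gave no adjusted p to the Insm1 peak and the weaker Foxp2 peak, so it called neither. Both Foxp2 calls were also lost without KL replicate 2 (-0.79 and -1.35). Without KL replicate 1, those at the weaker Foxp2 peak and at Bnc2 (-0.81) were lost. Here and below, losses under other normalizations are not given gene by gene. The highest of the 9 was Zbtb14, a zinc-finger protein, at 0.16.

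Bmp4 and Twsg1, of the secreted signals listed, had a called decrease. Bmp4, a ligand of BMP receptors with a role in lung branching, had 81 and 92 reads in KL and 53 and 45 reads in KLG4m/m at its promoter, chr14:46627479-46627879 (-0.76, SE 0.18). Twsg1, a secreted protein that binds BMPs and modulates their signalling, had 123 and 139 against 66 and 44 reads at chr17:66257714-66258114 (-1.19, SE 0.17). For these promoters the KLG4m/m reads were below the KL reads with no overlap. This order held at 48.7% of window peaks and 26.6% of all listed peaks, and it is no further support for the calls. The Bmp4 call was lost with DESeq2 and without KL replicate 2 (-0.67), and the Twsg1 call was kept in both. The 3 peaks of Twsg1 ran from -1.19 to 0.36, and only this promoter peak was called. Of 19 listed secreted and matrix proteins, 10 had a promoter peak in a window, with 2 called lower, none called higher and a median of -0.30. Of promoter peaks, 19.4% in the windows and 8.43% of all listed were called lower. Lgals3, which encodes galectin-3, was at 0.07, and Lama1, a laminin chain, at -0.54 without being called.

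None of the 9 receptors and adhesion proteins with a promoter peak, of 18 listed, was called (median -0.20). Of promoter peaks, 19.4% in the windows and 8.43% of all listed were called lower. Met, the receptor of hepatocyte growth factor, had 130 and 115 reads against 91 and 85 reads (-0.42, SE 0.15), with groups that did not overlap but no call. Both KLG4m/m libraries were below both KL libraries at 48.7% of window peaks and 26.6% of all listed peaks. Cd93 (0.30) and Thbd (0.22), surface proteins prominent on endothelial cells, were the highest of this list. By contrast with Met, the Igf2r promoter, named for the receptor that carries mannose 6-phosphate-tagged enzymes and IGF2 to lysosomes, had 75 and 88 reads in KL and 46 and 33 reads in KLG4m/m (-0.99, SE 0.20) and was called, though not with DESeq2. Igf2r was not on the list, and its other peak in the window, at 0.33, was not called.

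Of 17 caveolar, junctional and cytoskeletal genes listed, 11 had a promoter peak, with a median of -0.38. Of these 11, 4 were called lower and none higher. The shares were 19.4% and 1.85% for promoter peaks of the windows, and 8.43% and 2.89% for all listed promoter peaks. Capza2, an actin-capping subunit, had 75 and 87 reads against 46 and 25 reads (-1.13, SE 0.22). Epb41l2, a member of the protein 4.1 family that links actin to the membrane, had 119 and 119 against 80 and 50 reads (-0.82, SE 0.17). Afdn, which encodes the junction adaptor afadin, had 49 and 55 against 17 and 16 reads (-1.59, SE 0.26), and Mpdz, a multi-PDZ scaffold, 35 and 52 against 26 and 10 reads (-1.21, SE 0.31). With DESeq2 the calls at Capza2, Epb41l2 and Mpdz were lost, and that at Mpdz also without KL replicate 2 (-0.90). Cav1 and Cav2, the caveolins beside Met, were not called, at -0.38 and -0.25. The lowest fitted value of the list, -1.67 at Epb41l3, rested on 11 and 16 against 4 and 4 reads and was not called.

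In the list of lipid and peroxisome enzymes, both called members are protein palmitoyltransferases. Zdhhc2, which attaches palmitate to proteins, had 118 and 156 reads in KL and 62 and 53 reads in KLG4m/m (-1.19, SE 0.17), and Zdhhc21, another of this family, 174 and 185 against 137 and 97 reads (-0.56, SE 0.14). The Zdhhc21 call was lost with DESeq2 and without KL replicate 2 (-0.52). Asah1 (0.15) and Crot (0.08) were not called. Of 11 listed, 6 had a promoter peak, 2 were called lower, none higher, and the median was -0.34. Of promoter peaks, 19.4% in the windows and 8.43% of all listed were called lower. In the Igf2r window Agpat4, which acylates lysophosphatidic acid, had 209 and 231 against 264 and 275 reads and was called higher (0.35, SE 0.10), a call lost with DESeq2 and without KL replicate 1 (0.28). This promoter was not on the list either. Mtmr7, a myotubularin-related phosphoinositide phosphatase of the Zdhhc2 window, had 67 and 66 against 18 and 21 reads (-1.71, SE 0.24).

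Of 13 membrane transporters and channels listed, 8 had a promoter peak (median -0.32). Steap1, of the STEAP family, had 111 and 128 reads against 80 and 73 reads (-0.59, SE 0.15). It was the 1 called of the 8, against 19.4% of promoter peaks in the windows and 8.43% of all listed. This call was lost with DESeq2 and without KL replicate 2 (-0.48). Its neighbour Steap2 was at -0.40 without a call, whereas an intron peak of Steap4 was called higher on 6 and 8 against 21 and 35 reads. Cftr, the chloride channel of airway epithelium, had 3 promoter peaks between -0.40 and 0.73, none called, and a called peak 1695 bp from the start site with 21 and 18 against 7 and 5 reads. That call was lost without either KL replicate (-1.51 and -1.73). DESeq2 gave no adjusted p to this Cftr peak or to the Steap4 intron peak.

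Of 12 genes in the cell cycle list, 7 had a promoter peak, with a median of -0.12. Among these 7, 1 promoter was called lower, against 19.4% of promoter peaks in the windows and 8.43% of all listed. This was Dbf4, the regulatory subunit of the kinase that fires replication origins, at chr5:8472621-8473021, with 261 and 301 reads in KL and 128 and 105 reads in KLG4m/m (-1.21, SE 0.12). The level was 80.9 ± 8.21 CPM in KL and 34.8 ± 3.26 CPM in KLG4m/m (mean ± SD, n = 2 each), which made Dbf4 the strongest of the promoters with a log2 fold change under -1. At a distance of 0.200 Mb, Rundc3b, a RUN-domain protein, had 167 and 158 against 42 and 43 reads (-1.87, SE 0.16). Dlgap5, a mitotic spindle protein, was at 0.11 in the Bmp4 window.

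Basic cell machinery had 9 of 19 listed genes with a promoter peak and the median nearest to 0 of the 8 lists, -0.06, although 3 promoters were called lower. Gng5, a G protein gamma subunit, had 117 and 127 reads against 67 and 36 reads (-1.19, SE 0.19). Naa20, the catalytic subunit of an N-terminal acetyltransferase, had 150 and 176 against 107 and 91 reads (-0.66, SE 0.14), and Vapa, which tethers the endoplasmic reticulum to other membranes, 296 and 293 against 238 and 204 reads (-0.36, SE 0.10). The calls at Naa20 and Vapa were lost with DESeq2 and without KL replicate 2 (-0.54 and -0.36), and that at Vapa also without KL replicate 1 (-0.35). For comparison, Xrn2, a nuclear exonuclease, was at 0.22 and Nxt1, an mRNA export factor, at -0.01. Over the 8 lists, counting the strongest promoter peak of each gene, 15 of 69 (21.7%) were called lower and 0 higher. For all promoter peaks of the windows these were 42 of 216 (19.4%) and 4 of 216 (1.85%), and for all listed promoter peaks 8.43% and 2.89%, and nothing is read from the lists' counts.

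**Figure D4:**
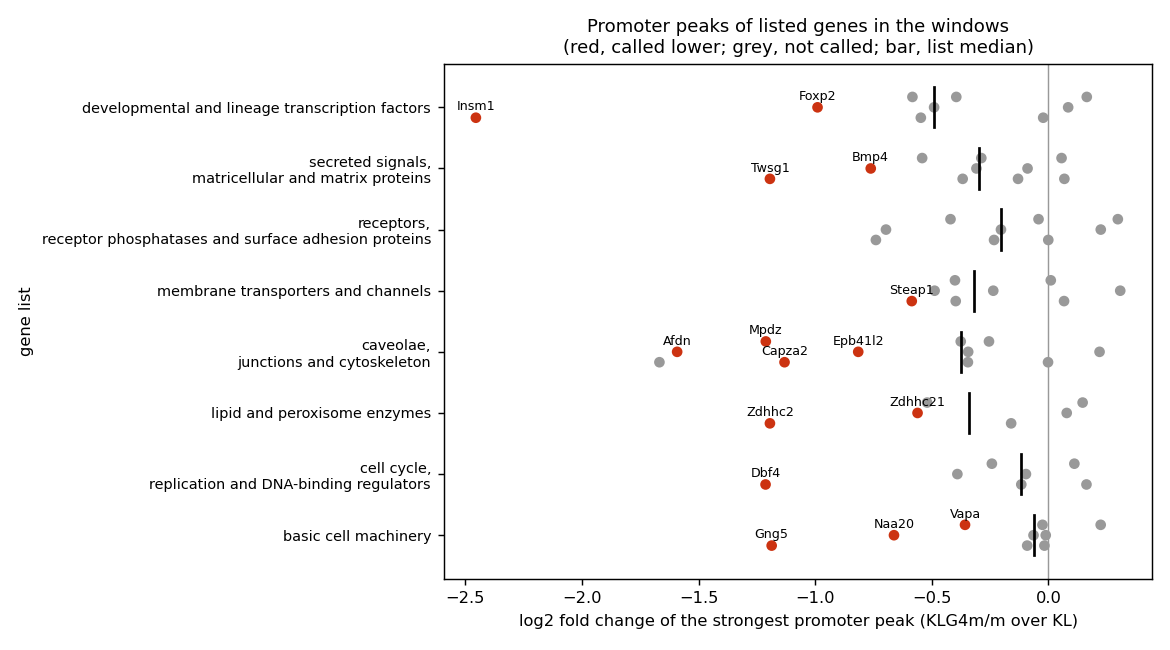
Log2 fold change (KLG4m/m over KL) of the strongest promoter peak of each listed gene in the windows on the horizontal axis, by gene list on the vertical axis; red points were called lower and are named, grey points were not called and black bars are list medians. The medians run from -0.49 for transcription factors to -0.06 for basic cell machinery.

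Other promoters outside the lists had large decreases. The largest at a mean of at least 10 CPM was at Syde2, at chr3:145693522-145693922. Syde2 had 83 and 109 reads in KL and 19 and 14 reads in KLG4m/m, that is 27.6 ± 5.32 and 4.92 ± 0.83 CPM (mean ± SD, n = 2 each), with a log2 fold change of -2.47 (SE 0.24). Its neighbour Bcl10, with no difference beyond the spread of the libraries, lies 0.0637 Mb from it. Ppp4r1, a regulatory subunit of protein phosphatase 4 in the Twsg1 window, had 113 and 133 against 47 and 39 reads (-1.46, SE 0.18). In the same window Ndufv2, a subunit of respiratory complex I, fell from 322 and 360 to 199 and 249 reads (-0.55, SE 0.11), a call lost with DESeq2.

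The Bmp4 window, which held the most peaks, had the most calls, 12 lower and none higher of 70 peaks. The log2 fold changes of the 12 ran from -1.85 to -0.32. Over all listed peaks, 5.52% were called lower and 3.1% higher. Ktn1, which encodes kinectin, had 141 and 202 reads against 110 and 88 reads (-0.74, SE 0.16), a call lost with DESeq2 and without KL replicate 2 (-0.45). The other Ktn1 peak of the window was at 0.88 and was not called. Gch1, the first enzyme of tetrahydrobiopterin synthesis, had 254 and 237 against 182 and 185 reads (-0.36, SE 0.11), and Socs4, a suppressor of cytokine signalling, 320 and 285 against 254 and 212 reads (-0.32, SE 0.10). The calls at Gch1 and Socs4 were lost with DESeq2 and without KL replicate 1 (-0.31 and -0.23), and that at Gch1 also without KL replicate 2 (-0.41). In the Epb41l2 window 3 of 34 peaks were called lower (8.82%, against 5.52% of all listed peaks). There Akap7, an anchor of protein kinase A, had 147 and 175 against 100 and 85 reads (-0.74, SE 0.14), a call lost with DESeq2. The other Akap7 promoter peak had 103 and 97 against 78 and 70 reads (-0.38, SE 0.16) and was not called.

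**Figure D5:**
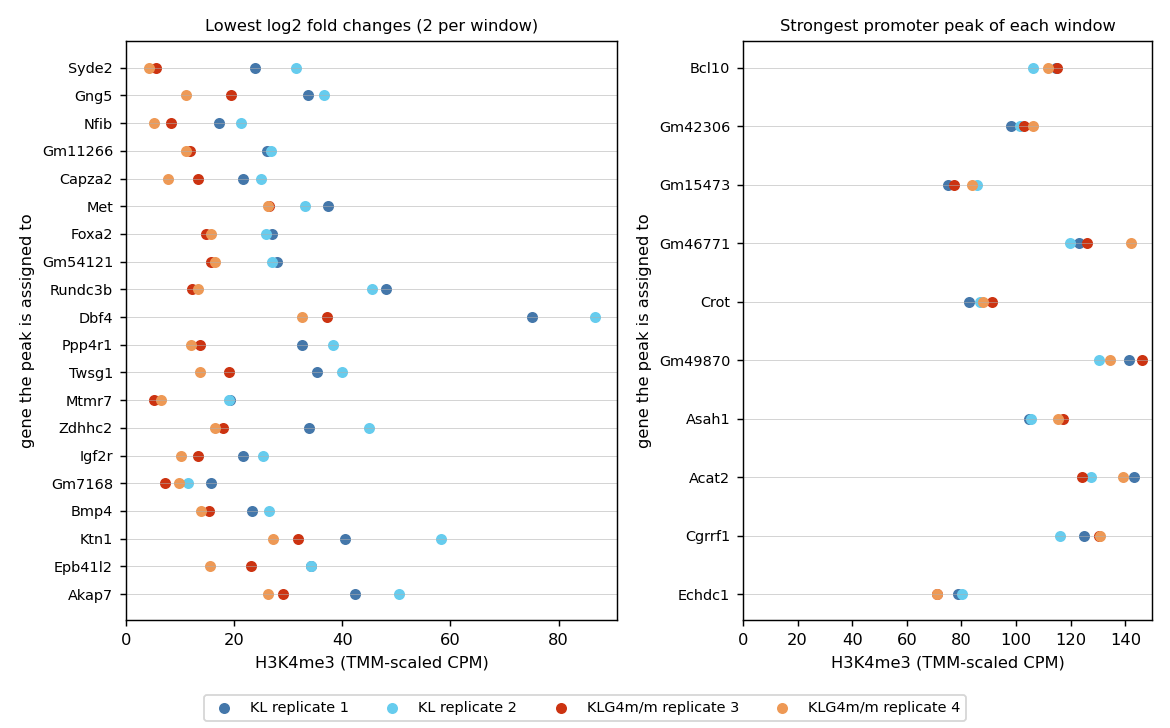
H3K4me3 in TMM-scaled CPM on the horizontal axis for the 2 peaks with the lowest log2 fold change in each window (left) and the strongest promoter peak of each window (right), 1 point per library. The KLG4m/m points lie below the KL points in all 20 peaks on the left, and above or among them on the right except at Echdc1.

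The Igf2r window held both the most calls upward and an imprinted pair of genes. Of its 60 peaks, 6 were called lower and 5 higher, where 5.52% and 3.1% of all listed peaks were. The 3 largest increases that passed 10 CPM lie within 0.247 Mb: an intron peak of Gm36589 with 77 and 74 reads in KL and 188 and 158 reads in KLG4m/m (1.25, SE 0.14), and 2 peaks of 2700054A10Rik, with 161 and 169 against 398 and 328 reads (1.19, SE 0.10) and 73 and 66 against 161 and 149 reads (1.21, SE 0.15). Chosen after the values were seen, these 3 peaks together were higher by 117 CPM in KLG4m/m, while the other peaks of the window, summed, fell by 105 CPM.

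In mice, Igf2r is expressed from the maternal allele, and the antisense RNA Airn, which starts inside Igf2r, silences it on the paternal allele. The Igf2r promoter was called lower (75 and 88 against 46 and 33 reads), and the Airn promoter had 53 and 50 reads in KL and 65 and 69 in KLG4m/m (0.44, SE 0.19), higher in both libraries but not called. The reads carry no strand and no allele, so which allele or transcript a read came from is not known. Sod2, the mitochondrial superoxide dismutase of this window, was at -0.20 (375 and 323 against 306 and 278 reads) and was not called.

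Genes with more than 1 promoter peak in the windows numbered 14, and their peaks need not move together. The widest spread was at Mtus1, a microtubule-associated protein, with 6 promoter peaks between -0.67 and 1.12, of which the highest was called higher on 26 and 15 against 56 and 30 reads, a call lost with DESeq2 and without KL replicate 2 (0.78). At Foxp2 both promoter peaks were low, at -0.99 and -1.18. Asah1 had its strong peak at 0.15 and a weak one of 12 and 18 against 9 and 7 reads at -0.84. A gene's value in the lists above is that of its strongest promoter peak alone.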

How the data were processed

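H3K4me3 was profiled in FACS-sorted tumor cells by the assay that the study calls CUT&Tag, described with pAG-MNase as in CUT&RUN. There were 2 KL and 2 KLG4m/m libraries, grouped by the genotype in the labels. Per the submitters' processing notes, Trim Galore 0.6.10, BWA 0.7.15, Picard 2.17.3, MACS2 2.2.7.1 and HOMER 4.11.1 were used, and the authors removed mitochondrial and poorly mapped reads. How peaks were merged is not given in the sources used here. The authors deposited, for each of 35486 peaks and each library, the counts (whole reads, not normalized) and the CPM scaled to reads in listed peaks. The authors' own comparison (log2 fold change, F statistic, p-value, FDR) was not used. On this scale a shift shared by all peaks cannot be seen.

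Counts of all listed peaks, with no filter, were fitted with edgeR 4.0.16 (quasi-likelihood test, TMM scaling, no covariate) in R 4.3.3, and called at a Benjamini-Hochberg adjusted p under 0.05 over all peaks. Printed CPM are TMM-scaled. limma 3.58.1 on log2(CPM + 1), with a pseudocount of 1, and DESeq2 1.42.0 were alternatives. Scripts were tested on simulated data. A further allele that both groups share is not reported here. The windows and gene lists were chosen with earlier results of these data known. Named peaks are, per window, the strongest promoter peak, the 2 lowest and the 1 highest log2 fold changes at a mean of at least 10 CPM, and listed genes by their strongest promoter peak; others named in the text were chosen after their values were seen. H3K27ac libraries were not analysed here.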

Additional observations from a re-analysis of the deposited data

How the results depend on the processing

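No paired analysis was possible because the groups compared share no replicate numbers. With 64 peaks called lower and 11 higher by edgeR, DESeq2 called 11 and 3, having given no adjusted p to 208 of the 491 peaks, among them 13 of the 64 and 5 of the 11. Quantile normalization with limma called 31 lower and 7 higher, and a fit limited to peaks averaging 10 CPM or more gave 50 lower and 5 higher. Leaving out 1 library gave 0 to 50 lower and 0 to 9 higher. Without KL replicate 2 it was 36 lower, and without KLG4m/m replicate 3 or 4 edgeR called 0 in either direction, with 88 and 102 peaks lower and 25 and 22 higher at an unadjusted p under 0.05. In those fits 1 KLG4m/m library is left, which is assumed to vary like the KL libraries, and the lowest adjusted p over the called peaks was 0.307 and 0.337 by edgeR. The cause was not tested. The median log2 fold change of -0.29 became -0.26 with limma, -0.24 with median centring, -0.23 with quantile normalization and -0.16 at 10 CPM or more, and -0.27 to -0.25 without 1 library. The log2 ratio of reads summed over all windows was -0.15. It was -0.14 for promoter peaks, -0.19 for other peaks, -0.18 without the strongest peak of each window and -0.16 scaled by total reads, against -0.29 for the median of the peaks. Promoters within 3 kb in place of 1 kb made up 52.3% of the peaks in place of 44.0%. Of the 75 called peaks 0 changed sign, but 43 lost their call with DESeq2, which gave no adjusted p to a further 18. Calls were lost at 37 with quantile normalization, 13 with median centring and 5 with limma. Without KL replicate 1 it was 24, and without KL replicate 2 it was 32. Of the 28 called among the 97 named, 15 lost it under an alternative that kept both KLG4m/m libraries, with a missing adjusted p not counted as a loss. Beside single genes above, only losses with DESeq2 or without a KL replicate were given, and several of those calls were also lost with quantile normalization or median centring. The summed ratio of the Igf2r window (0.01) became -0.01 without KL replicate 2. With 2 libraries per group and a median of 31.5 reads per peak, smaller changes at weak peaks could not be detected.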
